A study of Mus musculus with 18 samples.

Results

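Epithelial cells build an apical and a basolateral surface with 3 sets of scaffold and kinase proteins, the Par, Crumbs and Scribble complexes. The 10 genes described here encode these complexes: Pard3, Pard6b, Prkci and Prkcz for the Par complex, Crb3, Patj and Mpp5 (also called Pals1) for the Crumbs complex, and Llgl2, Scrib and Dlg1 for the Scribble complex. They were taken as the rows of the deposited count table whose Ensembl IDs carry these symbols in the GRCm38 annotation, 10 of 49671 IDs; the rule itself uses no measured value, though the genes were chosen with earlier results of these data known.

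As background, Pard3 is a scaffold that brings Pard6 and an atypical protein kinase C to the apical junction, and the small GTPase Cdc42 switches on the kinase through Pard6. Crb3 is a short transmembrane protein of the apical membrane that is bound by the adaptors Mpp5 and Patj, and Llgl2, Scrib and Dlg1 act on the basolateral side, where Llgl2 and the atypical kinases antagonise each other. In the mouse embryo the epiblast acquires this polarity as it implants, when the cells arrange as a rosette around a lumen.

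Mouse embryonic stem (ES) cells that had been maintained in 2i/Lif were embedded in growth factor-depleted Matrigel, a basement membrane gel, and their poly(A) RNA was sequenced in 18 samples, 3 for each of 6 groups. The first line, wild-type E14 (strain 12910la), was kept for 48 h in N2B27 medium with DMSO, with 3 µM CHIR99021 (CH), an inhibitor of Gsk3 that stabilises β-catenin, with 0.4 µM PD0325901 and 3 µM CHIR99021 (2i, where PD0325901 inhibits Mek), or with Activin A at 20 ng/ml together with Fgf2 at 12 ng/ml (Fgf2/Activin). Esrrb fl/fl ES cells, a line derived from Acr-EGFP transgenic mice that expresses a tamoxifen-inducible Cre, received 4-hydroxytamoxifen (4OHT) for 1 day or no 4OHT (NT) before the 3D culture, and both groups were then kept for 24 h with 3 µM CHIR99021. The study concerned the formation of polarised rosettes by ES cells in such media, and the comparisons ask which polarity genes differed in transcript level between them. Since no group received 4OHT without the floxed allele, 4OHT and loss of Esrrb cannot be told apart, and 2i and Fgf2/Activin media differ in 4 components whose effects cannot be separated.

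The libraries held 25388139 to 37158661 counts in the wild-type groups and 19915222 to 20140699 in the Esrrb fl/fl groups. All 6 ES cell and epithelial markers (Pou5f1, Sox2, Utf1, Sall4, Cdh1, Epcam) exceeded 1 CPM in each library, where CPM is the usual library-scaled count, here relative to the TMM-scaled library total, whereas primitive endoderm and neuroectoderm markers summed to at most 7.06 and 2.3 CPM. Esrrb itself stood at 138, 108 and 107 CPM in the NT replicates and at 58.1, 63.2 and 59.3 CPM in the 4OHT replicates, a count over all its exons and not over the deleted part alone. Replicate 1 stood apart from replicates 2 and 3 in every group: the mean chi-square per gene, which counting error alone would put near 1, was 29.7 to 65.9 between replicate 1 and either other replicate of a wild-type group but 2.86 to 8.57 between replicates 2 and 3. In the Esrrb fl/fl groups these values were 11.8 to 15.6 and 1.46 to 2.22. The labels name no batch and do not say that replicates came from separate cultures, so the p-values measure the spread between these libraries, which may be technical. In such bulk samples, fewer cells of a type and less RNA per cell cannot be told apart.

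All 10 polarity genes were measured in every library, with at least 133 counts (Patj) and at most 11217 counts (Prkci) in any of them. The genes fell into those that varied little and those that varied much between the 6 group means. Dlg1, Scrib and Mpp5 differed by 1.19, 1.26 and 1.37 times between their lowest and highest group means, Prkci, Prkcz, Pard3 and Pard6b by 2.17, 2.19, 2.68 and 2.8 times, and Llgl2, Crb3 and Patj by 4.48, 5.04 and 7.91 times. Over these 6 groups the Crumbs and Scribble complexes thus held genes of both kinds, whereas the 4 Par genes lay between 2.17 and 2.8 times. Except for Pard6b and Patj, the lowest and highest means came from different lines, which also differ in culture time and depth. Within the wild-type groups the Par genes were less alike. Means there ran from 41.9 to 51.4 CPM for Prkcz, 230 to 336 for Prkci, 80.8 to 127 for Pard3 and 21.4 to 59.9 for Pard6b. For Llgl2 they ran from 58.7 to 113 CPM.

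**Figure D1:**
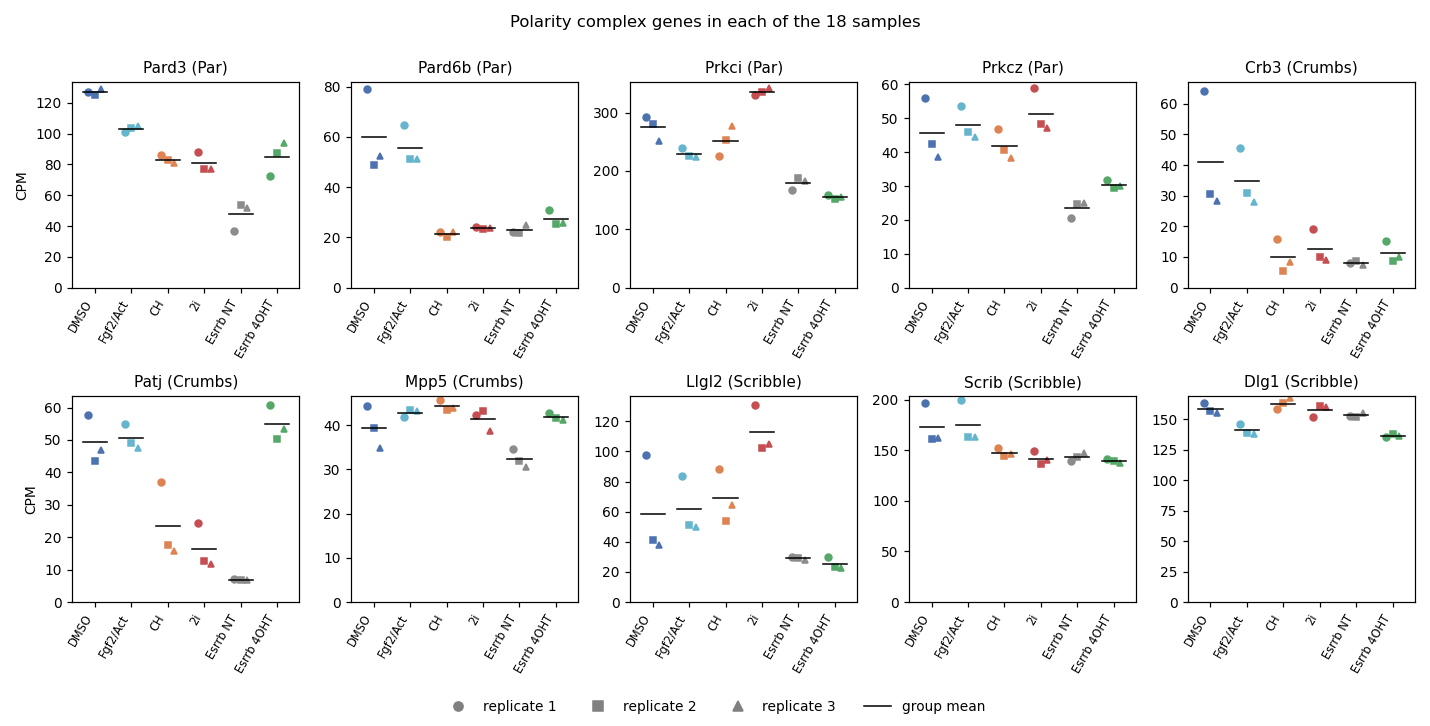
CPM (vertical axis, linear from 0, TMM-scaled) of each of the 10 polarity genes in the 18 samples, with 1 panel per gene, 1 column per group, symbols for replicates 1 to 3 and a line at the group mean. Pard6b, Crb3 and Patj sit lower in CH and 2i than in DMSO and Fgf2/Activin. Only Patj among them lies in the 4OHT group near the DMSO group, with means of 54.8 and 49.4 CPM. These groups differ in line and culture time, and no test was made across them.

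Levels of different genes were compared as CPM per kb of exon, with the exons of all annotated transcripts merged. This length can exceed that of any single transcript. It was 13086 bases for Patj and 14506 for Pard3, whose longest transcripts have 7340 and 5815 bases, but 3399 for Pard6b by either measure. The order of genes below holds for this scale, and an order by transcript length was not computed. Prkci, the atypical kinase iota, was the highest of the 10 in all 6 groups, from 28 ± 0.695 (SD, n = 3) CPM per kb in the 4OHT group to 60.5 ± 1.25 in 2i, and its 3 replicates did not overlap those of the next gene in any group. Patj had the lowest mean of the 10 on this scale in all 6 groups, from 0.529 ± 0.0163 CPM per kb in the NT group to 4.18 ± 0.41 in the 4OHT group. In DMSO its replicates overlapped those of Mpp5. Scrib, a basolateral scaffold, held the second place in 5 groups, with group means of 21.5 to 27.1 CPM per kb there. In 2i, Llgl2 stood above it with 23.3 ± 3.32 against 21.9 ± 1.07 CPM per kb, a pair whose replicates overlapped.

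The order of the middle genes shifted between cultures. In DMSO, Scrib (26.9 ± 3.15 CPM per kb), Crb3 (26.2 ± 12.9), Pard6b (17.6 ± 4.86), Dlg1 (14.8 ± 0.418), Llgl2 (12.1 ± 6.91), Pard3 (8.77 ± 0.144) and Prkcz (7.23 ± 1.47) followed one another in that order, and the replicates of each overlapped those of the next gene named. In CH the third place belonged to Dlg1 at 15.2 ± 0.414 CPM per kb, and Crb3 (6.33 ± 3.37) and Pard6b (6.28 ± 0.331) overlapped each other and Prkcz (6.63 ± 0.693). Crb3 therefore passed from the level of Scrib in DMSO to below Dlg1 and Llgl2 in CH, on this length-adjusted scale.

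**Figure D2:**
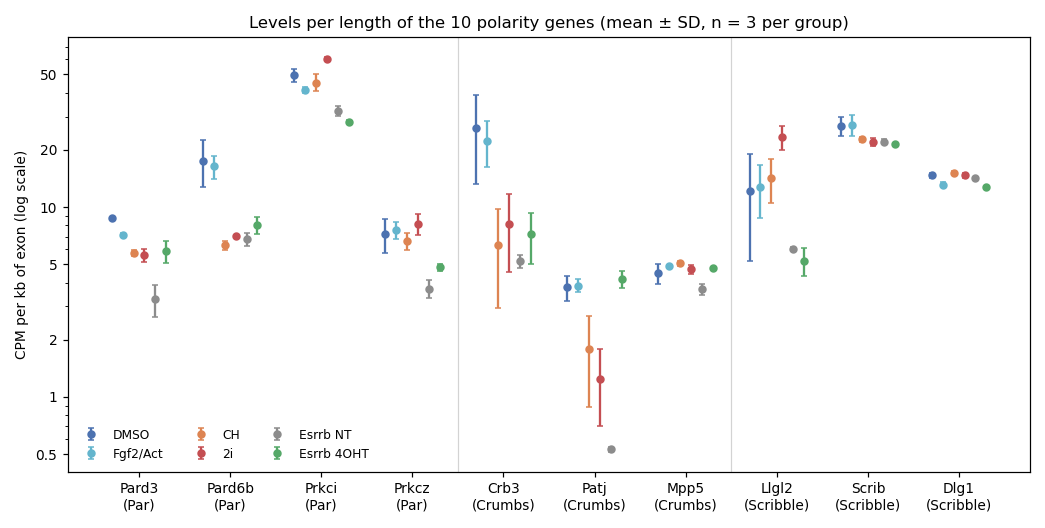
Mean ± SD (n = 3) of CPM per kb of exon on a log axis for the 10 polarity genes, with 1 colour per group and the complexes separated by vertical lines. Prkci lies highest in all 6 groups (28 to 60.5 CPM per kb), and Patj in the NT group (0.529 CPM per kb) is the lowest point.

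The first comparison asked how Gsk3 inhibition changed the polarity genes in 48 h of 3D culture. Genes were called by edgeR's quasi-likelihood test at a Benjamini-Hochberg adjusted p below 0.01 with a log2 fold change beyond 1 in either direction, which marked 17.7% of the 16413 genes tested between CH and DMSO, with 10.2% called lower and 7.51% called higher. Of the 10 polarity genes, 2 fell and none rose by this rule: Crb3 and Pard6b. Without the fold limit, 3 of 10 passed, against 28.9% of all genes, with Pard3 as the third and all 3 lower in CH (15.3% of all genes). The median log2 fold change of the 10 was -0.20, beside 0 over all genes tested.

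Pard6b, the Par6 protein that links the atypical kinase to Cdc42, is a gene of 3 exons on the plus strand of chromosome 2 (chr2:168081004-168101203, GRCm38). It had 78.9, 48.6 and 52.2 CPM in the DMSO replicates and 22.0, 20.1 and 22.0 CPM in the CH replicates. The CH replicates lay below all DMSO replicates, and DMSO replicate 1 was the high one of its group. Pard6b fell by 1.51 ± 0.17 (SE) on the log2 scale, a 2.84-fold difference (edgeR adjusted p = 3.91e-05), and by 1.28 without replicate 1 in every group.

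Crb3, the apical membrane protein of the Crumbs complex, lies on chromosome 17 (chr17:57059105-57065918, GRCm38, plus strand), where 0.895% of its exon bases overlap the antisense neighbour Dennd1c. Its DMSO replicates had 64.2, 30.4 and 28.2 CPM and its CH replicates 15.8, 5.57 and 8.36 CPM. The groups did not overlap, and replicate 1 was the highest in both. Crb3 fell by 2.06 ± 0.45 on the log2 scale, a 4.18-fold difference (edgeR adjusted p = 0.0036). The call was lost in 5 of 9 settings with samples left out: without CH replicate 2 (adjusted p = 0.0159), CH replicate 3 (0.0189), DMSO replicate 1 (0.0119), or replicate 2 or 3 in every group (0.0493 and 0.0456). It held in the other 4, among them without replicate 1 in every group at a log2 fold change of -2.11 (3.65e-09). Crb3 was also called in a fit that took in the replicate number (log2 fold change -2.07, edgeR adjusted p = 7.63e-07) and in DESeq2 (-2.07, 1.17e-05). Its adjusted p was below 0.01 in 9 of all 16 alternatives.

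Pard3, the Par complex scaffold (chr8:127063893-127612286, plus strand), stood at 127, 125 and 129 CPM in DMSO and at 86.0, 82.7 and 80.8 CPM in CH. Its replicates were tight in both groups and did not overlap, and it fell by 0.63 ± 0.07 on the log2 scale (edgeR adjusted p = 2.3e-05), less than the fold limit. Patj, a multi-PDZ adaptor (chr4:98395785-98719603, plus strand), had 57.7, 43.6 and 47.0 CPM in DMSO and 36.9, 17.5 and 15.7 CPM in CH. The groups did not overlap, but CH replicate 1 stood well above the other CH replicates, and the log2 fold change of -1.10 ± 0.33 did not pass in edgeR (adjusted p = 0.021), whereas DESeq2 called it (-1.11, 0.0044) and so called 3 of 10 genes, against 16.9% of all genes it tested.

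Because same-numbered replicates deviated together across the genome, a fit with the replicate number as a block was also made. It is given beside the results on the 10 genes that it changes. With this replicate block Patj was also called, at a log2 fold change of -1.18 (edgeR adjusted p = 0.000228), and Scrib passed below the fold limit at -0.25 (0.00384), so that 3 of 10 genes were called and 5 of 10 passed at any fold. The block raised these shares over all genes too, to 22% called and 45.2% passing. Patj was called as well without replicate 1 in every group (log2 fold change -1.46, adjusted p = 5.9e-10). Of the other genes, Prkci, Prkcz, Mpp5, Llgl2 and Dlg1 had log2 fold changes of -0.15, -0.14, 0.15, 0.21 and 0.02 and passed in neither the plain fit nor the block. Without replicate 1 in every group, Llgl2 reached 0.57 (adjusted p = 1.41e-05). That setting also raised the shares over all genes, to 23.1% called and 52.8% passing.

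**Figure D3:**
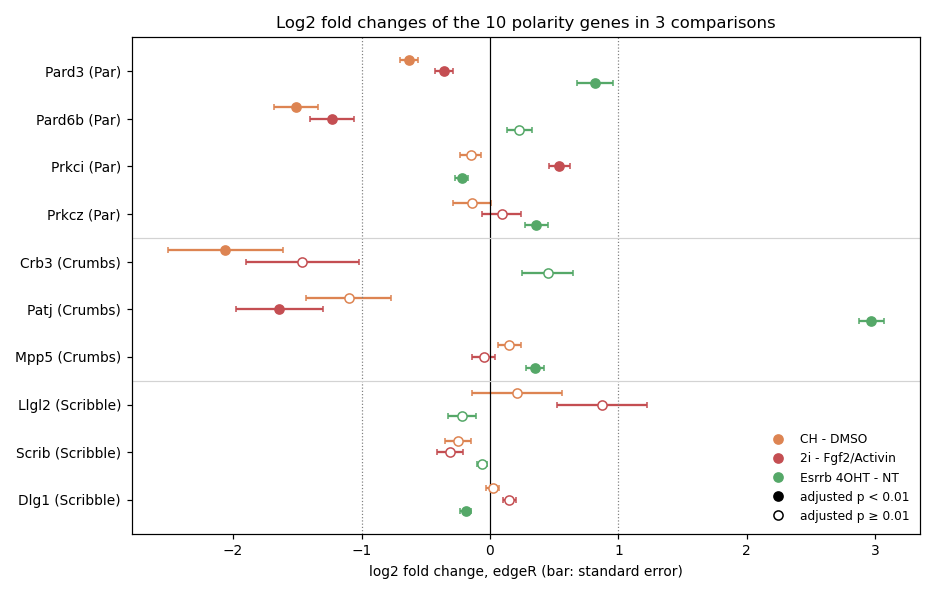
Log2 fold change (horizontal axis) with its standard error from edgeR for the 10 polarity genes in 3 comparisons, filled where the adjusted p was below 0.01; dotted lines mark the fold limit of 1. Crb3, Pard6b and Patj lie left of 0 in both wild-type comparisons, and Patj lies at 2.97 after 4OHT.

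The second comparison set 2i against Fgf2/Activin, where 23.5% of genes were called, 14.4% lower and 9.13% higher. Again 2 of 10 polarity genes fell by the rule, Patj and Pard6b, and none rose; at any fold 4 of 10 passed, against 37.7% of all genes, with 3 lower (19.9% of all genes) and 1 higher (17.8%). Their median log2 fold change was -0.18, beside 0 over all genes. The cultures in this comparison are other samples than those of the first.

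Pard6b had 64.6, 51.2 and 51.3 CPM in Fgf2/Activin and 24.3, 23.5 and 23.8 CPM in 2i, without overlap, and fell by 1.23 ± 0.17 on the log2 scale (edgeR adjusted p = 0.000103). Patj had 55, 49.1 and 47.4 CPM in Fgf2/Activin and 24.5, 12.6 and 11.7 CPM in 2i, with replicate 1 the highest in both, and fell by 1.64 ± 0.34 (adjusted p = 0.00196). The call of Patj was lost in 4 of 9 settings with samples left out, without 2i replicate 2 (adjusted p = 0.0116), 2i replicate 3 (0.0114), or replicate 2 or 3 in every group (0.0474 and 0.035), and without replicate 1 in every group its log2 fold change was -1.98 (1.55e-11). Crb3 had 45.7, 30.8 and 28.0 CPM in Fgf2/Activin and 19.2, 9.98 and 9.04 CPM in 2i. The Crb3 groups did not overlap either, but the log2 fold change of -1.46 ± 0.44 did not pass in the plain fit (adjusted p = 0.0167), whereas it did in DESeq2 (-1.47, 0.00227), in the replicate block (-1.51, 4.2e-06) and without replicate 1 in every group (-1.62, 2.02e-08). DESeq2 called 3 of 10 genes here, against 20.7% of all genes it tested.

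Pard3 fell by 0.36 ± 0.07 on the log2 scale (edgeR adjusted p = 0.000771), from 101, 104 and 105 CPM to 88.2, 77.0 and 77.1 CPM. Prkci, by contrast, rose by 0.54 ± 0.08 (adjusted p = 0.000204), from 240, 225 and 224 CPM in Fgf2/Activin to 330, 335 and 343 CPM in 2i. Prkci in 2i thus exceeded every other library of the series, DMSO replicate 1 at 292 CPM included.

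Llgl2, the lethal giant larvae homologue that marks the basolateral side, was at 83.7, 51.0 and 49.8 CPM in Fgf2/Activin and at 131, 102 and 105 CPM in 2i. The 2i replicates were all higher, yet the log2 fold change of 0.87 ± 0.35 did not pass (edgeR adjusted p = 0.0564). With the replicate block it was 0.92 (adjusted p = 0.000399), and without replicate 1 in every group it was 1.05 (8.1e-09), so that its call depended on how replicate 1 was treated. Scrib passed with the block, at -0.31 (0.00079), and without replicate 1 in every group, at -0.23 (0.000112). With the block 3 of 10 genes were called and 7 passed, against 27.5% and 53.4% of all genes. Without replicate 1 in every group 4 of 10 were called and 8 passed, against 27.6% and 59.5%. The cause of the height of replicate 1 was not tested.

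Replicate 1 was the highest of the 3 libraries in all 4 wild-type groups for Crb3, Patj, Llgl2, Prkcz and Scrib, 5 of the 10 genes, as it was for 21.2% of all genes tested. Replicates 2 and 3 held that place for 1.37% and 1.72% of genes and for none of the 10. The 5 genes span all 3 complexes, and the differences between cultures named above remained in the same direction without replicate 1.

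Between 2i and CH, which differ by PD0325901, none of the 10 polarity genes was called, where 1.99% of all genes were (0.317% higher and 1.67% lower). DESeq2 called none of the 10 either, where it called 3.32% of all genes. In edgeR 1 of 10, Prkci, had an unadjusted p below 0.05. The share of all genes below that unadjusted value was not computed. Prkci was at 225, 253 and 277 CPM in CH and at 330, 335 and 343 CPM in 2i, without overlap, with a log2 fold change of 0.42 ± 0.08 (edgeR adjusted p = 0.0103, and 0.00417 with the replicate block). Prkci also passed in DESeq2 (0.42, adjusted p = 9.64e-05), as did 6.36% of all genes. With the block, Llgl2 (0.74, adjusted p = 0.00797) and Prkcz (0.29, 0.00851) passed as well at any fold, 3 of 10 against 9.18% of all genes. Without the block none of 10 did in edgeR, against 2.83% of all genes (0.829% higher and 2% lower).

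Between Fgf2/Activin and DMSO, again none of 10 was called in edgeR or in DESeq2. Of all genes, 1.25% were called in edgeR (0.902% higher and 0.347% lower) and 2.02% in DESeq2. At any fold none of 10 passed in the plain edgeR fit, against 1.8% of all genes (1.18% higher and 0.615% lower). Unadjusted p-values below 0.05 were found for 3 of 10, Pard3, Prkci and Dlg1, with log2 fold changes of -0.31, -0.27 and -0.18. Here too the share of all genes below that unadjusted value was not computed. Pard3 passed with the replicate block (adjusted p = 0.00462), as did 6.62% of all genes, and in DESeq2 (-0.3, 0.000295), as did 4.64%. Crb3, Pard6b and Patj, which separated the cultures above, differed here by -0.24 ± 0.43, -0.12 ± 0.16 and 0.02 ± 0.33 on the log2 scale.

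The difference between both effects, CH against DMSO minus 2i against Fgf2/Activin, was tested for each gene. None of the 10 was called, where 2.17% of all genes were (1.68% higher and 0.494% lower), and none by DESeq2, where 4.42% of all genes were. In edgeR 2 of 10, Prkci and Pard3, had an unadjusted p below 0.05, and the share of all genes below that value was not computed. At any fold 1 of 10 passed, Prkci, with a difference of -0.69 ± 0.11 on the log2 scale (adjusted p = 0.00487), against 2.74% of all genes (1.89% higher and 0.853% lower). For Crb3, Pard6b and Patj the differences were -0.60 ± 0.62, -0.28 ± 0.23 and 0.54 ± 0.47, none of which passed in the plain fit. Without replicate 1 in every group the difference for Patj was 0.52 (adjusted p = 0.00299), a smaller fall between DMSO and CH. In that setting 3 of 10 passed at any fold, against 16.8% of all genes.

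In the Esrrb fl/fl cells, where CHIR99021 was present in both groups, 16.7% of the 14893 genes tested were called after 4OHT, 12.8% higher and 3.87% lower. Of the 10 polarity genes 1 was called, Patj, and it was higher. At any fold 6 of 10 passed, against 44.5% of all genes: Patj, Pard3, Mpp5 and Prkcz were higher (24.6% of all genes) and Dlg1 and Prkci lower (19.9%). The median log2 fold change was 0.29, beside 0 over all genes.

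Patj had 7.12, 6.70 and 6.95 CPM in the NT replicates and 60.7, 50.2 and 53.4 CPM in the 4OHT replicates. None of the other 9 genes had groups so far apart, and the spread within each group was small. The log2 fold change was 2.97 ± 0.10, a 7.82-fold rise (edgeR adjusted p = 5.99e-07), and it stayed between 2.88 and 3.02 in all 16 alternatives. The 4OHT level, 54.8 ± 5.37 CPM (SD, n = 3), stood beside 49.4 ± 7.39 CPM in wild-type DMSO culture, and the NT level lay below the lowest wild-type library with CHIR99021 (11.7 CPM in 2i), although line and culture time differ between these sets and no test was made across them.

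Pard3 rose from 37.0, 53.6 and 51.9 CPM to 72.5, 87.5 and 94.0 CPM, without overlap, by 0.82 ± 0.14 on the log2 scale (edgeR adjusted p = 0.00114). Mpp5, the adaptor that joins Crb3 to Patj, rose from 34.7, 31.9 and 30.6 CPM to 42.8, 41.5 and 41.1 CPM, by 0.35 ± 0.07 (0.00258). Prkcz, the zeta kinase, rose from 20.5, 24.7 and 25.1 CPM to 31.7, 29.5 and 29.9 CPM, by 0.36 ± 0.09 (0.00862), a value near the threshold that passed in 5 of 16 alternatives. These 3 rises were far smaller than that of Patj.

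In the other direction, Prkci fell from 167, 188 and 182 CPM to 159, 152 and 155 CPM, by 0.22 ± 0.05 on the log2 scale (edgeR adjusted p = 0.00729). Dlg1, a basolateral scaffold of the membrane-associated guanylate kinase family, fell from 153, 152 and 155 CPM to 135, 138 and 136 CPM, by 0.19 ± 0.04 (0.00492). Both passed in only 7 and 9 of 16 alternatives. Scrib, at 139 to 147 CPM in NT and 137 to 141 CPM in 4OHT, and Llgl2, at 28.2 to 29.6 and 22.5 to 30.0 CPM, did not pass.

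Pard6b and Crb3, which were called lower in CH against DMSO, were not called after 4OHT. Pard6b stood at 22.2, 21.8 and 25.1 CPM in NT and 30.7, 25.5 and 25.7 CPM in 4OHT, a log2 fold change of 0.23 ± 0.10 that did not pass (edgeR adjusted p = 0.0778). Crb3 stood at 8.16, 8.76 and 7.46 CPM in NT and 15.1, 8.58 and 10 CPM in 4OHT, with overlapping groups and a log2 fold change of 0.45 ± 0.20 (0.0866), which was 0.18 without replicate 1 in every group. In both groups Pard6b and Crb3 remained nearer to the wild-type CH level (21.4 ± 1.12 and 9.9 ± 5.28 CPM, SD, n = 3) than to the DMSO level (59.9 ± 16.5 and 40.9 ± 20.2 CPM), again across different lines and times and with no test.

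Lineage markers moved between the same groups. The summed level of the primitive streak markers T, Mixl1, Mesp1 and Evx1 was 464 to 699 CPM in CH, 82.8 to 117 CPM in 2i and at most 1.53 CPM in DMSO or Fgf2/Activin, and it was 62 to 69.2 CPM in NT and 419 to 535 CPM in 4OHT, with 3 of 4 markers above 1 CPM in CH and in 4OHT. The 5 naive markers summed to 1246 to 1477 CPM in CH and 2112 to 2329 CPM in 2i, but to 56.3 to 186 CPM in DMSO and 95.5 to 155 CPM in Fgf2/Activin, and they went from 555 to 743 CPM in NT to 321 to 351 CPM in 4OHT. The 4 formative markers summed to 2353 to 3652 CPM in DMSO, 2859 to 3504 CPM in Fgf2/Activin, 479 to 875 CPM in CH and 309 to 446 CPM in 2i, and to 940 to 1258 CPM in NT and 524 to 793 CPM in 4OHT. The trophectoderm markers summed to 74.7 to 118 CPM in CH, 36.4 to 56.2 CPM in 2i and at most 20.3 CPM in DMSO and Fgf2/Activin, with 2 of 5 above 1 CPM in CH, and to 44.7 to 47.3 CPM in NT and 40.2 to 53.2 CPM in 4OHT. Single markers went against their sum: Cdx2 (64.4 ± 25 CPM, SD, n = 3) and Tfap2c (24.9 ± 0.679 CPM) made up most of the trophectoderm sum in CH, while Eomes fell there by 2.08 on the log2 scale (edgeR adjusted p = 0.00158). Among the formative markers Fgf5 rose after 4OHT, from a mean of 2.62 to 16.4 CPM (0.00196). The primitive endoderm markers summed to 0.957 to 2.03 CPM in NT and 4.17 to 7.06 CPM in 4OHT, where 2 of 5 exceeded 1 CPM. The 6 ES cell and epithelial markers went from 2980 to 3031 CPM in NT to 2241 to 2365 CPM in 4OHT. Among them mean Sox2 went from 288 to 55 CPM and Cdh1 from 603 to 798 CPM. From DMSO to CH, Sox2 went from 84.4 to 345 CPM and Cdh1 from 942 to 502 CPM. No marker of these lists was at 0 counts throughout a group. Their part in the polarity results was not tested.

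Several polarity genes have paralogues that could serve in the same place, and the share of each within its family was computed from counts per kb of exon. Pard6b made up 54.9 ± 5.62% (SD, n = 3) of the Pard6 family in DMSO and 49.8 ± 2.62% in Fgf2/Activin, but 26.2 ± 1.32% in CH and 30.6 ± 0.399% in 2i. The 6 samples with CHIR99021 averaged 28.4% and the 6 without it 52.4%, a difference of -24 percentage points (exact permutation test, two-sided, p = 0.00216, the smallest this test can give, 0.00866 adjusted over 4 shares). The test pooled unlike cultures and shuffled samples freely, although same-numbered replicates deviated together. A version that shuffled within replicate numbers was not run for any of the 4 shares, and its smallest possible p would be larger. Within each pair of cultures the differences were -28.7 and -19.2 points, each at exact p = 0.1, the smallest that 3 against 3 samples can give.

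The other Pard6 genes did not follow Pard6b as a group. Pard6g, another Par6 protein, had 30.9, 26.4 and 28.7 CPM in DMSO and 44.0, 44.6 and 46.4 CPM in CH, and rose by 0.63 ± 0.08 on the log2 scale (edgeR adjusted p = 0.000109). Between Fgf2/Activin and 2i its level differed by 0.04 ± 0.08 (0.688). Pard6a, the lowest of the family, fell by 0.57 ± 0.14 in CH (0.00762), to 5.43 ± 0.471 CPM (SD, n = 3). After 4OHT Pard6g rose from 14.1, 15.6 and 16.8 CPM to 38.2, 41.6 and 43.8 CPM, by 1.40 ± 0.09 (7.15e-06), and the share of Pard6b went from 45 ± 2.15% to 33.6 ± 3.9% (exact p = 0.1).

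Of the other families, Prkci made up 84.5 to 89.7% of both atypical kinases in all 6 group means, Llgl2 22.8 to 49.1% of both Llgl genes, and Dlg1 41.4 to 50.3% of the 5 Dlg genes. With and without CHIR99021 these shares differed by 1.71, 5.13 and 2.06 percentage points, with exact permutation p-values of 0.139, 0.32 and 0.26 (0.277, 0.32 and 0.32 adjusted over 4 shares). These averages hide unlike pairs: from DMSO to CH the shares moved by -0.226, 0.697 and 5.97 points and from Fgf2/Activin to 2i by 3.65, 9.56 and -1.86 points, where the exact p was 0.1 for the last 4 of these 6 values, the smallest possible, and 0.8 and 1 for the first 2. Reads of Prkcz could be shared with Prkcz2, which matches 34.9% of its longest transcript and had at most 2.22 CPM in any library. That low level cannot show whether reads matching both genes were counted. If they were left out, Prkcz was counted too low and the Prkci share is too high, which was not tested.

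**Figure D4:**
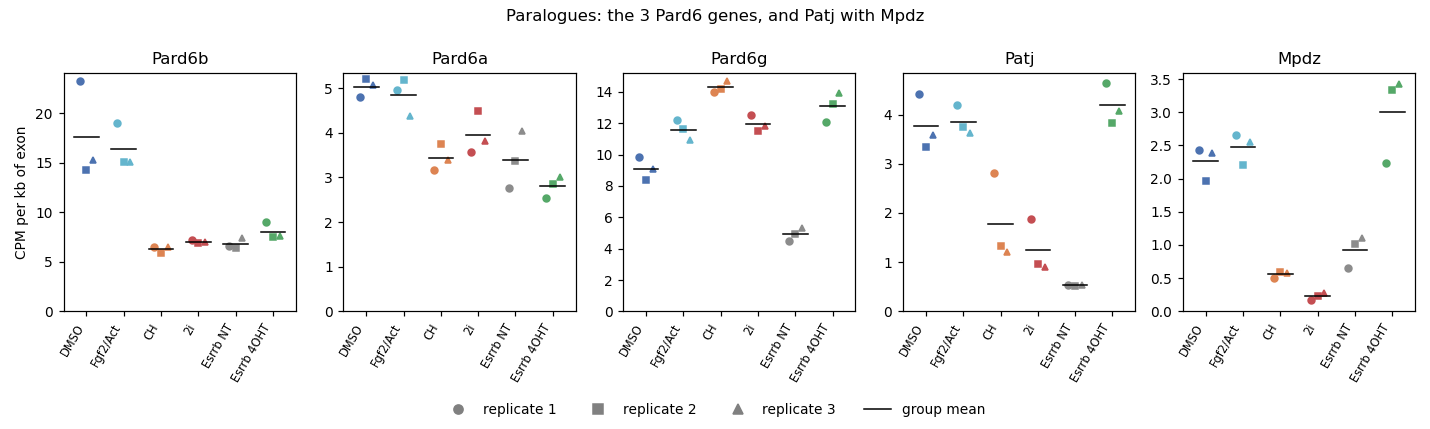
CPM per kb of exon (vertical axes, each from 0) of the 3 Pard6 genes and of Patj with its paralogue Mpdz in the 18 samples; symbols mark replicates 1 to 3 and lines the group means. Pard6b is lower in CH and 2i (6.28 and 7.02 CPM per kb) than in DMSO (17.6) while Pard6g is not, and Patj and Mpdz are both lower in CH and 2i and higher after 4OHT.

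The paralogue of Patj is Mpdz (also called Mupp1), a multi-PDZ adaptor that also binds Mpp5. It had 30.2, 24.5 and 29.8 CPM in DMSO and 6.20, 7.41 and 7.14 CPM in CH, and fell by 2.04 ± 0.17 on the log2 scale (edgeR adjusted p = 4.59e-06). From Fgf2/Activin to 2i it went from 33.1, 27.5 and 31.7 CPM to 2.12, 2.96 and 3.40 CPM, a fall of 3.45 ± 0.18 (1.07e-07). Its fall was larger in that pair than between DMSO and CH by 1.40 ± 0.24 (0.00531), and it was lower in 2i than in CH by 1.29 ± 0.17 (0.00143). After 4OHT it rose from 8.21, 12.7 and 13.8 CPM to 27.8, 41.5 and 42.7 CPM, by 1.67 ± 0.21 (0.000207). Patj and Mpdz, the multi-PDZ adaptors of the Crumbs complex, were thus both called higher after 4OHT, and both were called lower in 2i in its comparison with Fgf2/Activin.

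A wider list of 38 further polarity genes, the paralogues, partners and regulators of the 10, was read in the same fits, and 37 of them were tested in the wild-type cultures and 34 in the Esrrb fl/fl cells. Between CH and DMSO 1 of 37 was called higher and 4 lower, against 7.51% and 10.2% of all genes. That was 5 in all against 17.7%, with a median log2 fold change of -0.29, beside 0 over all genes. Between 2i and Fgf2/Activin 1 was called higher and 5 lower, against 9.13% and 14.4% of all genes. That was 6 of 37 against 23.5%, with a median of -0.26. After 4OHT 7 of 34 were called higher and none lower by edgeR, with a median of 0.26. Over all genes 16.7% were called, 12.8% higher and 3.87% lower, so that most calls were higher there too. At any fold 14 passed higher and 6 lower, against 24.6% and 19.9% of all genes (44.5% in all). In the last comparison Lin7a, Lin7b, Crb1 and Dlg2 had too few counts to be tested, as had Lin7a in the wild-type cultures.

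Among the Crumbs partners, Amot, a scaffold of tight junctions that binds Patj and Mupp1, differed between cultures in both directions. It had 9.60, 11.2 and 13.4 CPM in DMSO, 26.6, 27.7 and 20.0 CPM in CH, 22.0, 32.0 and 34.6 CPM in Fgf2/Activin and 9.84, 7.86 and 8.19 CPM in 2i. It rose by 1.10 ± 0.20 from DMSO to CH (edgeR adjusted p = 0.00107), rose by 1.36 ± 0.20 from DMSO to Fgf2/Activin (0.00271) and fell by 1.78 ± 0.20 from Fgf2/Activin to 2i (2.94e-05), all on the log2 scale. It fell by 1.52 ± 0.20 from CH to 2i (0.00127), and its effects in the first pair and in the second differed by 2.88 ± 0.28 (0.000199). After 4OHT it rose from 6.5, 9.47 and 10.2 CPM to 52.8, 72.4 and 76.6 CPM, by 2.93 ± 0.18 (6.77e-06).

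Crb2, a paralogue of Crb3 with a long extracellular domain, had the largest log2 fold change of the wider list after 4OHT. It had 1.29, 2.92 and 1.83 CPM in NT and 28.9, 24.7 and 28.6 CPM in 4OHT, and rose by 3.75 ± 0.22 on the log2 scale (edgeR adjusted p = 4.83e-06), from 25 to 58 counts per library to 520 to 604. Per kb of exon, Crb2 in the 4OHT group stood at 4.09 ± 0.355 CPM beside 7.18 ± 2.17 CPM for Crb3. In the wild-type cultures Crb2 was between 0.882 and 5.27 CPM and was not called between CH and DMSO or between 2i and Fgf2/Activin. Between 2i and CH its log2 fold change of -1.68 did not pass in the plain fit (edgeR adjusted p = 0.0226). It passed there in DESeq2 (-1.68, 0.000611) and with the replicate block (-1.61, 0.00544). Crb1, the remaining paralogue, was called lower in 2i against Fgf2/Activin (0.000701), but on 0 to 3 counts per library in 2i and 18 to 20 in Fgf2/Activin, so no fold is given.

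For the remaining direct paralogues, Pard3b rose by 2.57 ± 0.46 on the log2 scale after 4OHT (edgeR adjusted p = 0.00145), on 1 to 6 counts per library in NT and 18 to 33 in 4OHT. Dlg4 fell by 2.37 ± 0.28 in CH against DMSO (5.74e-05), by 3.67 ± 0.30 in 2i against Fgf2/Activin (2.67e-06) and by 1.65 ± 0.30 in 2i against CH (0.00709), from 16.4 to 18 CPM in DMSO. After 4OHT Dlg4 rose by 0.96 (edgeR adjusted p = 0.000766), just below the fold limit. Dlg2 was called lower in both wild-type pairs but was scarce, with 12 to 22 counts in DMSO, 15 to 39 in Fgf2/Activin, 0 in each CH library and 0 or 1 in 2i, so no fold is given. Dlg3 fell by 0.91 ± 0.14 in CH (0.000329) without reaching the fold limit, Dlg5 rose by 0.92 ± 0.10 in 2i against Fgf2/Activin (1.99e-05), and Llgl1 rose by 0.34 ± 0.07 there (0.00202). Mpp7, a paralogue of Mpp5, had log2 fold changes of 0.27, 0.15 and 0.31 in these pairs and after 4OHT, which did not pass in the plain fit, while the first and the last passed with the replicate block (adjusted p = 0.00581 and 0.00214). Llgl1 passed with the block in CH against DMSO (0.26, 0.00485) and Dlg3 in 2i against Fgf2/Activin (-0.44, 0.000165).

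Of the regulators, 12 genes that include the Par1 kinases of the Mark family, 1 was called between 2i and Fgf2/Activin, against 23.5% of all genes. Mark4 rose by 1.22 ± 0.28 on the log2 scale (edgeR adjusted p = 0.00407). After 4OHT 1 was called, Mark1, against 16.7% of all genes. With the replicate block 6, 6 and 7 genes of the wider list were called in the first pair, in the second and after 4OHT, beside 5, 6 and 7 without it. Over all genes 22%, 27.5% and 17.7% were called with the block, beside 17.7%, 23.5% and 16.7% without it. At any fold 23, 19 and 28 genes of the wider list passed with the block, beside 14, 15 and 20. Over all genes the shares passing at any fold went in the same way, from 28.9% to 45.2%, from 37.7% to 53.4% and from 44.5% to 56.3%.

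**Figure D5:**
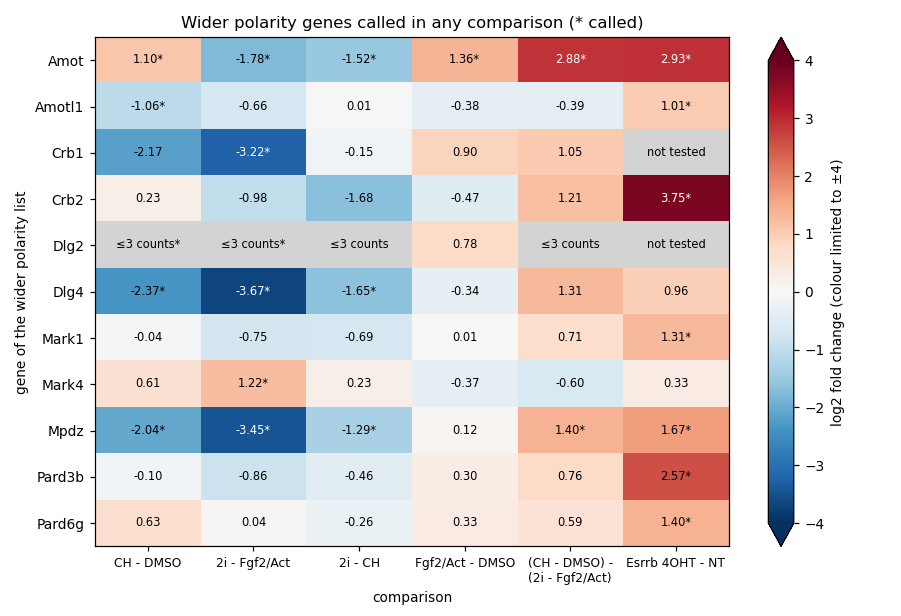
Log2 fold changes (colour and printed value) of the 11 genes of the wider polarity list called in at least 1 of 6 comparisons, with genes as rows, comparisons as columns and a star for a called gene; grey marks genes not tested or with at most 3 counts in a group. Mpdz is called in 5 columns and Amot in all 6, and the column for 4OHT holds called genes in 1 direction only. Over all genes 12.8% were called higher after 4OHT and 3.87% lower.

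Promoter sequence is shown for Pard6b, Crb3 and Patj, which had the largest falls in CH or 2i among the 10 genes, so that their start regions can be compared. RefSeq windows on GRCm38.p6 were found for 7 of 10 genes (Crb3, Dlg1, Pard3, Pard6b, Patj, Prkci and Prkcz), 16 windows in all, and not for Mpp5, Llgl2 and Scrib. The stretches below are the first listed window of each gene from 250 bases before the start site up to the next annotated exon, 5′ to 3′ on the plus strand, at chr2:168080754-168081003 for Pard6b, chr17:57061951-57062140 for Crb3 and chr4:98395576-98395784 for Patj. The Crb3 stretch lies inside the gene, in an intron of the 1 of its 5 annotated transcripts that begins further upstream, and before the start of the other 4. Capitals mark the E-box CACCTG or its reverse complement CAGGTG, letters that the Snail and Zeb repressors of epithelial genes are known to bind, a motif chosen after the windows had been seen.
Pard6b: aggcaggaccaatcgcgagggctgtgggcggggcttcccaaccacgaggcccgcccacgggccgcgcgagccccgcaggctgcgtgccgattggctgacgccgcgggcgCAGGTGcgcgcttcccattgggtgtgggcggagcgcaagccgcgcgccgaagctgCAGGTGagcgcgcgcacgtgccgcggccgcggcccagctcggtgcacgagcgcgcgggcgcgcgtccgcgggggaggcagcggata
Crb3: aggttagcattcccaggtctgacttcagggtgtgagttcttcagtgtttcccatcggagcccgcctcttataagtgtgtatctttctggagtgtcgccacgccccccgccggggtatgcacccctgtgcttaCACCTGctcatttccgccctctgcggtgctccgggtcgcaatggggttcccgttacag
Patj: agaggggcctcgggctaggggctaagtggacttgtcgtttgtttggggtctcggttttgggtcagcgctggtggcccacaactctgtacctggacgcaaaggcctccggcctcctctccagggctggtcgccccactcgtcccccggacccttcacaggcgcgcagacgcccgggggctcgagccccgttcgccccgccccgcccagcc

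These stretches hold 2 E-boxes in Pard6b, 1 in Crb3 and none in Patj, and the full 250 bases before the start site hold 2, 3 and 1. An E-box was present in 7 of the 16 windows of the polarity genes (Crb3, Pard3, Pard6b, Patj and Prkcz) and in 17.2% of all 32851 RefSeq windows of that length, counting both strands. Since this motif was chosen after the windows had been seen, and 1 gene can have several windows, these values cannot show an enrichment. The stretches are rich in G and C, at 77.6% in Pard6b, 58.4% in Crb3 and 69.9% in Patj. The Esrrb motif TCAAGGTCA occurred in none of the 16 windows and in 0.387% of all windows, the TCF/LEF motif ATCAAAG in 1 of 16 (Dlg1) and in 3.21%, and the GRHL motif AACCGGTT in none and in 0.116%. A match describes letters only and was not set against binding data.

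Genes whose levels ran most like those of the most variable polarity genes were found by Pearson's r of log2(CPM + 1) over the 18 samples, which share 6 groups and 3 replicate numbers, within 10522 genes whose mean reached 5 CPM. For Pard6b these were Ptprf (r = 0.98), Rgl3 (0.98) and Tmcc3 (0.97). Ptprf went from a mean of 666 CPM in DMSO to 145 CPM in CH, and Rgl3 from 15.1 to 0.102 CPM. For Crb3 they were Tmem106c (0.97), Rab11a (0.96) and Srebf2 (0.96), and for Patj Gpx3 (0.98), Zswim8 (0.97) and Specc1 (0.97). For Llgl2 they were Tmtc4 (0.99), Map1lc3b (0.98) and Mpst (0.96), with means in DMSO and CH of 16 and 18.9 CPM for Tmtc4 and 27.5 and 36.7 CPM for Mpst.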

How the data were processed

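Total RNA was enriched for poly(A) RNA, made into directional libraries and sequenced on a NextSeq 500. The authors aligned reads with TopHat2 to mm10 and counted them per Ensembl gene (GRCm38) with HTSeq without regard to strand, so reads of antisense neighbours cannot be separated; DESeq2 is also named in the submitters' processing notes. The deposited table holds raw counts of 49671 IDs in 18 samples, of which 0 rows name no gene; 49412 IDs matched GENCODE vM21, which supplied symbols, coordinates and exon lengths. Depth was 19915222 to 37158661 counts per sample.

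Counts were tested with edgeR 4.0.16 (filterByExpr, TMM, quasi-likelihood F-test) in R 4.3.3, with 12 wild-type samples in 1 fit and 6 Esrrb fl/fl samples in another, and adjusted by Benjamini-Hochberg over all genes tested. CPM for display were scaled by TMM over all 18 samples. Shares of paralogues were compared by two-sided exact permutation tests (SciPy 1.17.1) that took no account of replicate numbers. The scripts were tested on simulated data. The 10 genes and the further lists were chosen with earlier results of these data known. The text names the 10 genes, their direct paralogues, per comparison up to 3 further called genes in each direction with the largest log2 fold change, and 3 genes of most similar pattern for 4 of the 10. Alternatives were DESeq2 1.42.0 and its size factors, other count filters, other fold rules, other sample sets, the replicate block and each sample left out.

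Replicate numbers come from the sample titles. Over 10522 genes, same-numbered samples deviated from their group means together, with correlations of 0.372 to 0.838 in the 5 direct comparisons, all above 0.1, so the numbers pair the samples, and the fit with the replicate block is given beside the results on the 10 genes that it changes. No pair of replicates agreed within counting error.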

Additional observations from a re-analysis of the deposited data

Results flagged for a closer look

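Prkci, the atypical kinase iota, was marked because its effect differed between both pairs of cultures in a test of the difference itself. Its log2 fold change was -0.15 ± 0.08 between CH and DMSO and 0.54 ± 0.08 between 2i and Fgf2/Activin, a difference of -0.69 ± 0.11 (edgeR adjusted p = 0.00487, n = 3 per group). The difference lay between -0.77 and -0.62 in the 21 alternatives, and its adjusted p was below 0.01 in 11 of them, at 0.00175 with the replicate block and 2.72e-05 without replicate 1 in every group. Over all genes 9.34% passed with the block and 16.8% without replicate 1 in every group. Groups of 3 samples were not searched for single outlying samples.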

How the results depend on the processing

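Over the 6 comparisons the 10 polarity genes had 1010 alternative log2 fold changes, of which 881 kept their direction and side of the threshold, 66 lost the threshold, 38 gained it and 25 changed sign, all 25 with samples left out and none of a gene called in that comparison. Leaving out samples gave, between CH and DMSO, -0.24 to 0.03 for Prkcz, -0.02 to 0.78 for Llgl2 (-0.01 without CH replicate 1) and 0 for Dlg1 without replicate 3 in every group; between 2i and Fgf2/Activin, -0.01 to 0.19 for Prkcz; between 2i and CH, -0.05 to 0.87 for Crb3; and between Fgf2/Activin and DMSO, -0.24 to 0.13 for Pard6b (0.01 without replicate 1 in every group), -0.04 to 0.23 for Prkcz, -0.49 to 0.23 for Crb3, -0.06 to 0.14 for Patj (-0.04 without replicate 2 in every group), -0.23 to 0.63 for Llgl2 (-0.02 and -0.04 without replicate 2 or 3 in every group) and -0.11 to 0.1 for Scrib (-0.01 without replicate 1 in every group). The difference of both effects for Scrib was -0.06 to 0.15. The number of the 10 genes called between CH and DMSO, 2 as reported, was 0 when tested against a fold limit (glmTreat), 1 with only the 6 samples compared and 1 to 3 with samples left out. Between 2i and Fgf2/Activin, also 2 as reported, it was 0 with glmTreat, 4 with no minimum fold (37.7% of all genes) and 1 to 4 with samples left out. No share of all genes is given beside the counts for glmTreat, the 6 samples and single samples left out, so they cannot be read against it. DESeq2 called 3 in each of these comparisons (16.9% and 20.7% of all genes), as did the block (22% and 27.5%). With no minimum fold the number was 1 for the difference of both effects (2.74% of all genes) and 6 after 4OHT (44.5%). With the replicate block the pairing moved the number passing at any fold from 3 to 5 between CH and DMSO, from 4 to 7 between 2i and Fgf2/Activin, from 0 to 3 between 2i and CH and from 0 to 1 between Fgf2/Activin and DMSO, for the genes named with their block values (Patj -1.18, Crb3 -1.51, Llgl2 0.92), and it changed no other call of the 10. The Prkci share of both kinases differed by 1.25 to 2.33 percentage points with samples left out, and its exact permutation p, not adjusted, was 0.0433 without CH replicate 1. The settings without a replicate number in every group were chosen after seeing the data. The cause of these changes was not tested. Depth did not limit the 10 genes, each with at least 133 counts in every library, but it did limit Dlg2, Crb1 and Pard3b.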
